A study of Mus musculus with 8 samples.

Results

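Heat-shock proteins and their co-chaperones were followed as a set of 40 genes in mouse kidneys measured on 8 single-colour Agilent arrays. A gene belonged to the set by its name, and its value was that of the brightest probe whose RefSeq accession belonged to it. The set was chosen with earlier results of these data known, so shares of members set beside shares of all genes are descriptive. Of the 40 members, 38 had such a probe, Dnajb5 and Dnajb11 had none, and 37 passed the filter on dim probes, out of 20580 genes tested in all. Hsf2 had 2 probes, neither well above background on any array, so no difference is given for it. All 37 tested members were well above background on all 8 arrays, so every difference below was measured on both sides.

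The kidneys came from male mice 16 weeks old, in 4 groups of 2 arrays. Wild-type (WT) normal and Keap1 knockdown (KD) normal are left kidneys that were not clamped. WT IRI and KD IRI are left kidneys whose renal artery and vein had been clamped for 45 minutes and then released, an ischemia-reperfusion injury (IRI), with tissue taken on day 1. The right kidney was not clamped. The labels name the genotype only as a Keap1 knockdown, with no promoter, allele or cell type for it, and name no strain. They do not say that the 2 arrays of a group are separate animals, so all p-values measure only the spread between these arrays, which may be technical.

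Heat-shock proteins are molecular chaperones that bind unfolded or newly made proteins. HSP70 proteins hold and release clients in a cycle driven by ATP. DNAJ (HSP40) proteins start that cycle by delivering clients and stimulating ATP hydrolysis, and HSP110 proteins and BAG proteins end it by exchanging the nucleotide. HSP90 matures selected clients with the help of co-chaperones such as Stip1 and Ahsa1, and small heat-shock proteins hold aggregating proteins without using ATP. Transcription of many of these genes is switched on by the factor HSF1, which binds inverted repeats of the letters nGAAn, called heat-shock elements. Keap1 is the adaptor that marks the transcription factor NRF2 for degradation, so that lowering Keap1 raises NRF2 targets.

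The sequences before the start sites of 6 members are shown because the results below turn on these genes: the near-identical inducible HSP70 pair, the small heat-shock protein Hspb1, and the 3 members with a full heat-shock element. They come from RefSeq on GRCm38.p6, on the strand of the gene, with the units GAA and TTC of the elements in capitals. For Hspa1a (chr17:34972157-34972406, minus strand) and Hspa1b (chr17:34959239-34959488, minus strand) the whole 250 bases before the start are given. For Hspb1 (chr5:135887787-135887844, plus strand), Hspd1 (chr1:55088044-55088091, minus strand), Hspe1 (the same bases, plus strand) and Dnajb6 (chr5:29735837-29735879, plus strand) the stretch around the element is given.
Hspa1a: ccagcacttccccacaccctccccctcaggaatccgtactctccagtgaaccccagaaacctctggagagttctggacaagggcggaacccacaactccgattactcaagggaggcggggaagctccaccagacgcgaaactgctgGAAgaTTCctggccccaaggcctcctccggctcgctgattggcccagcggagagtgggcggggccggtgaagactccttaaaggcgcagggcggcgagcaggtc
Hspa1b: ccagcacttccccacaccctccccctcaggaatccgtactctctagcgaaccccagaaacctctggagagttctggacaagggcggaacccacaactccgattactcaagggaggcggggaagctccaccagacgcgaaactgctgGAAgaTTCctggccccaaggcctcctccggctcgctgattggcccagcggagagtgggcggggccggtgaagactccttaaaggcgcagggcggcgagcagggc
Hspb1: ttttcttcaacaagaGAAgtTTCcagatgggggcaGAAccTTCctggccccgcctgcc
Hspd1: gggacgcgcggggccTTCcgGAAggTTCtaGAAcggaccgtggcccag
Hspe1: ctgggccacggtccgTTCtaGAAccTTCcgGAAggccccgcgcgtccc
Dnajb6: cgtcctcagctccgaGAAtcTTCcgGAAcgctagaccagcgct

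The 250 bases before Hspa1a and Hspa1b differed at 3 positions (98.8% identical). Their transcripts and probes were not compared, so whether their signals mix on an array is uncertain, as is the share of each gene. Hspd1 and Hspe1 are transcribed away from each other, and the element shown is the same stretch of DNA read on opposite strands. An upstream window was found for 32 of the 40 members. An element of 3 units (GAA, TTC and GAA, or TTC, GAA and TTC, each 2 bases apart, on either strand) lay in the 250 bases before the start of 3 of these 32 (9.38%), namely Hspd1, Hspe1 and Dnajb6, against 139 of 27025 genes (0.514%). A shorter element of 2 units, GAANNTTC or TTCNNGAA on either strand, was searched after that result had been seen and overlaps the longer element. It was present in 11 of 32 members (34.4%) and in 3932 of 27025 genes (14.5%). Those 11 were Hspa1a, Hspa1b, Hspb1, Hspb6, Hspd1, Hspe1, Hsph1, Dnaja1, Dnaja4, Dnajb4 and Dnajb6. The antioxidant response element core TGACNNNGC, the motif NRF2 binds, searched on both strands, was present in 4 of 32 members (12.5%), Hsph1, Dnaja2, Dnajb1 and Dnajb2, and in 3112 of 27025 genes (11.5%). These matches describe letters in a fixed window and do not show binding.

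Levels below are log2 of the processed signal relative to the 75th percentile of the same array, and differences are on the same log2 scale with limma's standard error (SE). Without injury Keap1 stood at 2.78 and 2.70 on the WT arrays and at 1.53 and 1.44 on the KD arrays. After injury it read 2.71 and 2.55 in WT, then 1.38 and 1.09 in KD, with no overlap between genotypes. It was lower in KD than in WT without injury (-1.26, adjusted p = 0.0039) and after it (-1.39, adjusted p = 0.00498). The NRF2 targets Nqo1, Gclc, Gclm, Hmox1, Txnrd1 and Srxn1 were all higher in KD in both states. Between 62.1% and 67.8% of the 43379 spots that are not controls were well above background on each array, and none was saturated. Over genes, the 2 arrays of a group correlated at 0.989 to 0.994. Every listed marker of podocytes (5 of 5), collecting duct (6 of 6), proximal tubule (8 of 8) and the loop with the distal tubule (6 of 6) passed the filter on dim probes. Replicate 1 of every group shared a slide, as did replicate 2, so each slide held all 4 groups. The KD normal replicate 1 array stood apart from replicate 2 in several members, as described below.

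**Figure D1:**
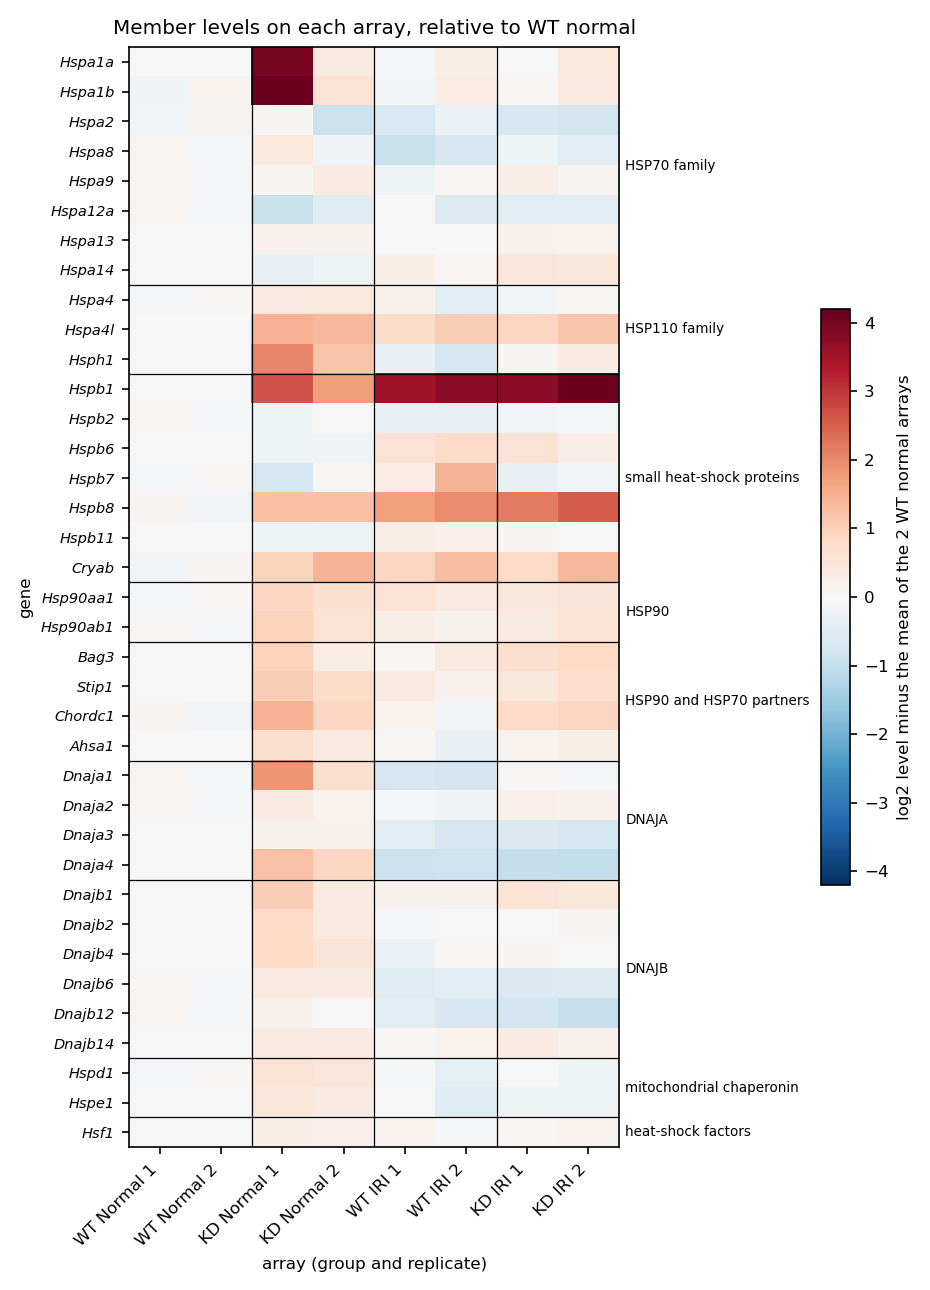
Colour gives each tested member's log2 level on each of the 8 arrays minus its mean in the 2 WT normal arrays, with genes in rows by role and arrays in columns by group and replicate. The KD normal arrays are raised in most roles, Hspa1a and Hspa1b are dark on KD normal replicate 1 alone, and Hspb1 is high on all 6 arrays outside WT normal.

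Without injury, chaperones of most roles were higher on the KD arrays than on the WT arrays. Of the 37 members tested, 17 were higher in KD normal than in WT normal (45.9%) and none was lower, while 6.34% of all genes were called higher and 8.97% lower (15.3% in either direction). The members' median difference was 0.54, against -0.030 over all genes. At an unadjusted p under 0.05, 27 of the 37 members passed, against 32.9% of all genes. The small heat-shock protein Hspb1, the HSP110 proteins Hsph1 and Hspa4l, and Hspb8 led the rise.

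The number called, among the members and over all genes, fell when a WT normal array was left out. Without WT normal replicate 1, 2 members passed, Hspa4l and Hspb8, with 92 of 20580 genes higher and 155 lower. Without replicate 2, Hspa4l passed, with 53 genes higher and 69 lower. Each of these fits keeps a single array in that group and lends it the spread of the others. The median difference of the members was 0.52 in both, so their sizes moved little. With no filter on dim probes 10 members passed, and Hspa4l alone passed under every alternative setting and every omission of an array.

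**Figure D2:**
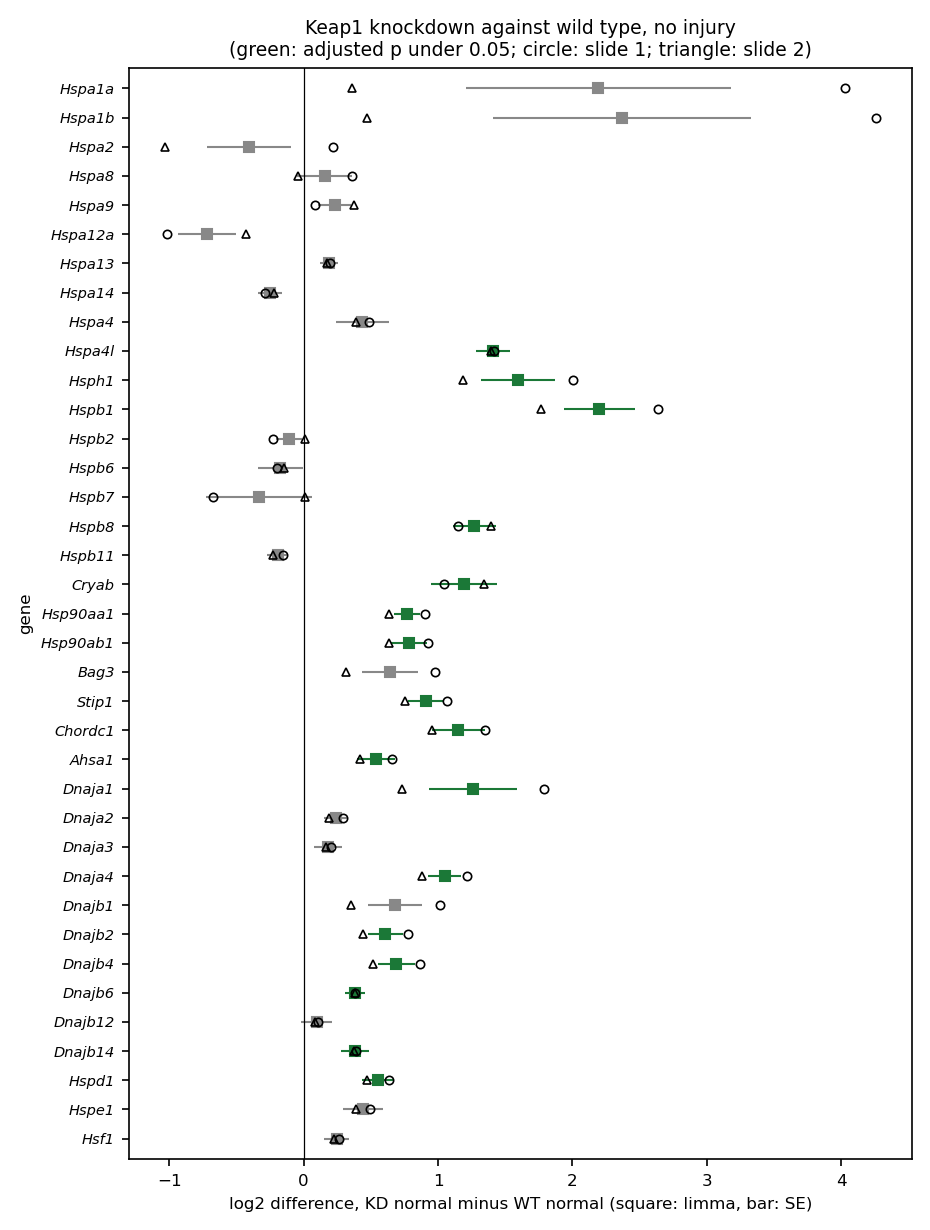
Squares give the log2 difference between KD normal and WT normal for the 37 tested members and bars its SE. Open circles and triangles give the difference within slide 1 (replicate 1) and slide 2 (replicate 2), green marks an adjusted p under 0.05. Most members lie right of 0, and Hspa1a and Hspa1b have the widest gap between slides.

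Of the 7 small heat-shock proteins, 3 rose. Hspb1, known as HSP25 in the mouse, caps actin and holds unfolded proteins, and stood at 0.73 and 0.73 in WT normal and at 3.37 and 2.49 in KD normal. Both KD arrays lay above both WT arrays, and the difference was 2.20 ± 0.26 (SE, n = 2 per group), a 4.6-fold rise (adjusted p = 0.00667). Without KD normal replicate 1 it was 1.76 and still passed. Hspb8, which works with Bag3 in the removal of misfolded proteins by autophagy, went from -1.85 and -2.09 to -0.70 on both KD arrays. Its rise was 1.27 ± 0.16 (adjusted p = 0.00764), and the KD replicates did not differ at this rounding. Cryab, or alpha-B crystallin, stood at 3.80 and 4.0 in WT normal and at 4.84 and 5.34 in KD normal. It rose by 1.19 ± 0.24 (adjusted p = 0.0241), but did not pass without KD normal replicate 2 (0.94, adjusted p = 0.0974) or on its dimmer probe (0.51, adjusted p = 0.0749). The other 4 small members, Hspb2, Hspb6, Hspb7 and Hspb11, lay between -0.33 and -0.11 and did not pass. Hspb11 is also known as a subunit of intraflagellar transport in cilia.

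Cryab and Hspb8 are abundant in muscle, and Cryab and Hspb1 in the renal medulla, so markers of those sources were summed on each array as signal relative to the 75th percentile. Smooth muscle markers (7 of 8 detected, Myocd not above background) summed to 66.6 and 90.5 in WT normal and to 39.0 and 29.9 in KD normal, although 3 of the 7 were called higher and 1 lower. Skeletal and cardiac muscle markers (5 of 9 detected) summed to 0.77 and 0.883, then 1.14 and 1.13. Their defining genes Ckm, Tnnt3, Myh4 and Myh6 were not above background on enough arrays to be kept. Inner medulla and osmotic response markers (8 of 8) summed to 98.2 and 92.5 in WT normal and to 116 and 135 in KD normal, with 3 of the 8 called higher and 1 lower. Podocyte markers summed to 90.2 and 188 in WT normal and to 32.4 and 16.2 in KD normal, with 1 of 5 higher and 1 lower. Loop and distal tubule markers summed to 424 and 430, then 333 and 349, with 3 of 6 lower. In the collecting duct list 3 of 6 were lower, while its sum went from 49.1 and 54.1 to 60.0 and 75.9. The part of these in the result was not tested. In whole kidney, more cells of a type and more RNA per cell cannot be told apart.

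HSP110 proteins, the exchange factors of HSP70, rose in 2 of 3 cases. Hspa4l stood at 0.20 and 0.15 in WT normal and at 1.62 and 1.55 in KD normal. The 4 values formed 2 tight pairs that did not overlap, with a difference of 1.41 ± 0.13 (2.65-fold, adjusted p = 0.0039). Its 2 other probes gave 1.13 and 1.32, both past the threshold. Hsph1, the main stress-inducible member of the family, stood at 4.34 and 4.28 in WT normal and at 6.35 and 5.46 in KD normal. The rise was 1.60 ± 0.28 (3.02-fold, adjusted p = 0.015), and it was 1.15 without KD normal replicate 1. Hspa4 did not pass on its brightest probe (0.44, adjusted p = 0.178), while 2 dimmer probes passed at 0.35 and 0.51.

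HSP70 proteins gave no call among 8 members, and the inducible pair differed between the 2 KD normal arrays. Hspa1a stood at 2.72 and 2.78 in WT normal, and at 6.75 and 3.14 in KD normal. Hspa1b stood at 0.71 and 0.99 in WT normal, and at 4.97 and 1.47 in KD normal. The KD arrays lay above the WT arrays for both genes, but nearly all of the mean differences of 2.19 ± 0.98 (adjusted p = 0.174) and 2.37 ± 0.96 (adjusted p = 0.138) came from replicate 1. The dimmer probe of Hspa1a showed the same, with 6.6 against 3.01 on the KD normal arrays, as did that of Hspa1b with 1.67 against -1.82. Without KD normal replicate 1 the differences were 0.39 (adjusted p = 0.292) and 0.62 (adjusted p = 0.143). Without replicate 2 they were 4.0 and 4.12 and passed, as they did with all arrays under normexp background correction (2.04 and 2.12).

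Hspa8, the constitutive HSP70 of the cytosol, stood at 6.81 and 6.62 in WT normal and at 7.17 and 6.58 in KD normal. The groups overlapped, with a difference of 0.16 ± 0.20 (adjusted p = 0.641). Its other HSP70 relatives ranged from -0.72 for Hspa12a, an atypical family member, to 0.23 for the mitochondrial Hspa9, and none passed. A second probe of Hspa9 passed at 0.34 (adjusted p = 0.0332).

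Both HSP90 genes rose by a similar size. Hsp90ab1, the constitutive form, stood at 5.57 and 5.47 in WT normal and at 6.5 and 6.11 in KD normal (0.78 ± 0.13, adjusted p = 0.0139). The inducible Hsp90aa1 rose by 0.77 ± 0.09 (adjusted p = 0.007). Of the 4 partners, Chordc1, an HSP90 co-chaperone, stood at 0.87 and 0.66 in WT normal and at 2.21 and 1.62 in KD normal. The rise of Chordc1 was 1.15 ± 0.20 (adjusted p = 0.0146), and its second probe gave 1.45. Stip1, which bridges HSP70 and HSP90, rose by 0.91, and Ahsa1, which stimulates the ATPase of HSP90, by 0.54. Bag3 did not pass (0.64, adjusted p = 0.0804).

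DNAJ proteins rose in 6 of 10 cases, 2 of 4 of type A and 4 of 6 of type B. Dnaja1, a cytosolic partner of Hspa8, stood at 4.15 and 4.02 in WT normal and at 5.94 and 4.75 in KD normal. The difference was 1.26 ± 0.33 (adjusted p = 0.046), and 0.67 without KD normal replicate 1. The call was lost when either WT IRI array (adjusted p of 0.0558 and 0.0557) or either KD IRI array (0.0805 and 0.0806) was left out. Its 2 dimmer probes gave 1.07 and 1.22, both past the threshold. Dnaja4 stood at 0.35 and 0.32 in WT normal and at 1.57 and 1.2 in KD normal, a rise of 1.05 ± 0.12 (adjusted p = 0.00647). In type B, Dnajb4 (0.69), Dnajb2 (0.61), Dnajb6 (0.38) and the endoplasmic reticulum protein Dnajb14 (0.38) passed. Dnajb1, the classical stress-inducible HSP40, did not (0.68, adjusted p = 0.0626).

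In the mitochondrial chaperonin, Hspd1 (HSP60) rose by 0.55 ± 0.12 (adjusted p = 0.0257). Its co-chaperonin Hspe1, which shares the upstream element printed above, differed by 0.44 ± 0.15 (adjusted p = 0.0872). Hsf1 stood at 1.25 and 1.21 in WT normal and at 1.51 and 1.43 in KD normal. Those groups did not overlap, but the difference of 0.25 ± 0.09 did not pass (adjusted p = 0.118). One Hsf2 probe read -6.08 and -7.22 (WT normal), -6.58 and -7.56 (KD normal), -7.11 and -8.01 (WT IRI), and -7.00 and -6.48 (KD IRI). The other lay between -6.73 and -5.73, and neither was well above background on any array.

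The KD normal arrays differed from each other in several members. A gap of at least 0.5 (replicate 1 over replicate 2) was present in 10 of 37 members (27%), against 6.27% of all genes, and a gap of at least 1 in 4 members, against 1.65%. Hspa1a and Hspa1b had gaps of 3.61 and 3.5, at ranks 8 and 9 among 20580 genes. Dnaja1 (1.19), Hspa2 (1.02), Hsph1 (0.88), Hspb1 (0.88), Dnajb1 (0.70), Bag3 (0.65), Chordc1 (0.60) and Hspa8 (0.59) followed. Cryab (-0.50) and Hspb7 (-0.81) differed the other way, though a second, dimmer probe of Hspb7 read -1.68 against -4.36. On the same 2 arrays the summed neutrophil markers (6 of 7 detected) were 0.779 and 6.31 and the podocyte markers (5 of 5) 32.4 and 16.2. Fat markers (4 of 5) summed to 0.509 and 2.68. On the WT normal arrays the podocyte sums also differed, at 90.2 and 188, as did the fat sums, at 3.14 and 0.621. The part of these markers in the gap was not tested.

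Leaving out KD normal replicate 1 left 12 members higher and 1 lower (Hspa2, -0.92), with a median of 0.36. In that fit 4.57% of all genes were higher and 6.44% lower. Leaving out replicate 2 left 17 higher and 0 lower, against 2.97% and 4.4% of genes, with a median of 0.61. Bag3, Dnajb1, Hspa1a and Hspa1b were then called, and Ahsa1, Cryab, Dnajb14 and Hspd1 were not. The 11 members called higher in all 3 fits were Hspb1, Hspb8, Hspa4l, Hsph1, Hsp90aa1, Hsp90ab1, Chordc1, Stip1, Dnaja1, Dnaja4 and Dnajb2. Within slides, the median difference of the members was 0.64 on slide 1 and 0.38 on slide 2. Both KD normal arrays lay above both WT normal arrays in 28 of 37 members, against 29.7% of all genes. They lay below in 4 members, against 34.9% of all genes.

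**Figure D3:**
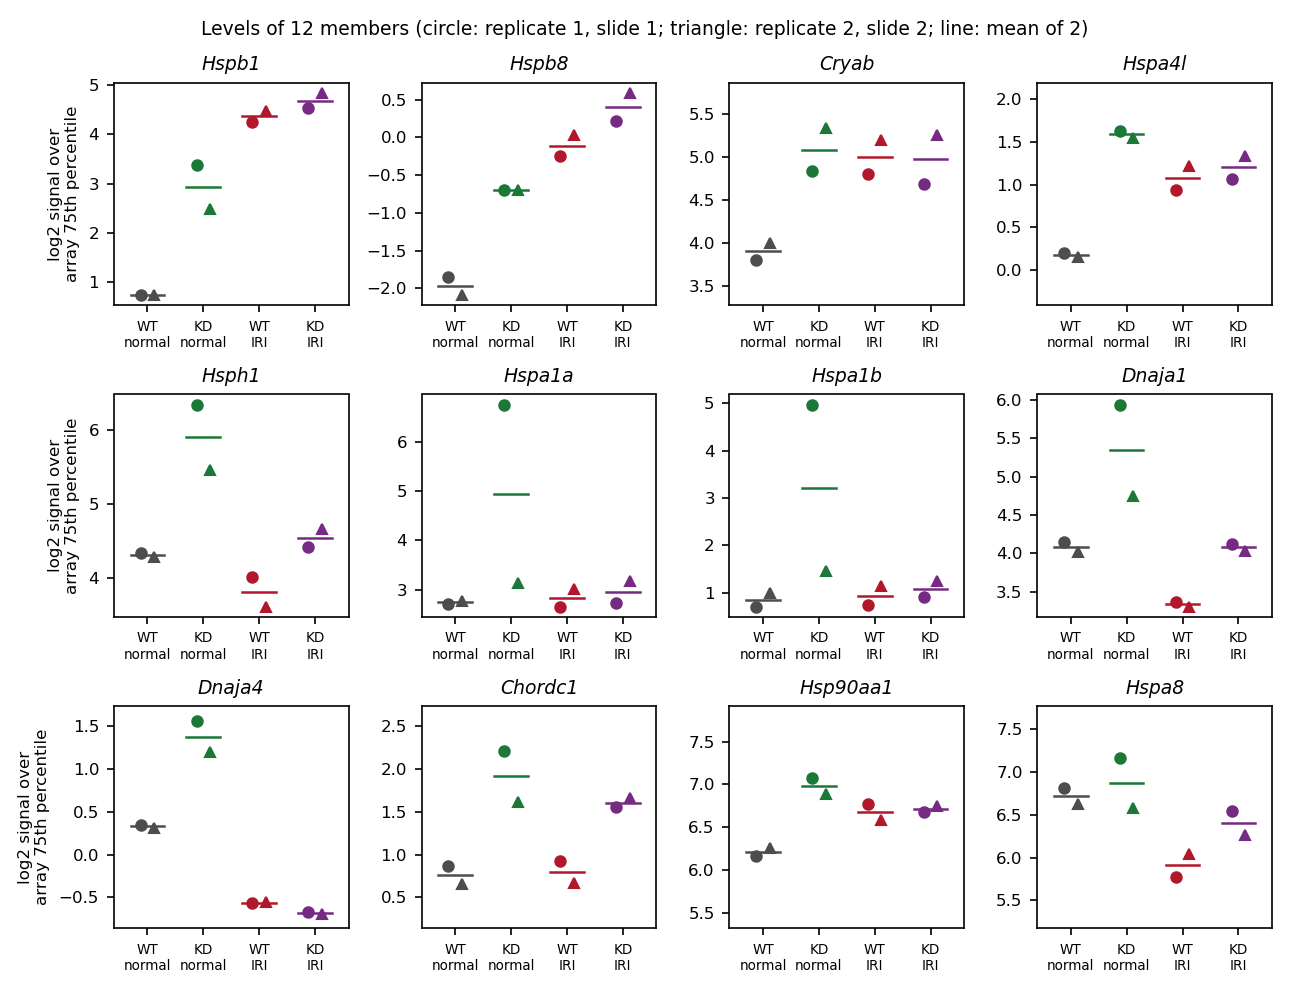
Each panel gives the log2 level of a member, over its array's 75th percentile, on the 8 arrays, with circles for replicate 1, triangles for replicate 2 and lines for group means. Vertical scales differ between panels. Hspb1 and Hspb8 rise from WT normal to KD normal and again to IRI, whereas the KD normal arrays are the highest for Hsph1, Dnaja1 and Dnaja4.

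After injury in WT kidneys, a smaller share of the members than of all genes was called. Most rises were in small heat-shock proteins, and most falls were in DNAJ proteins (2 of 4 of type A and 2 of 6 of type B). Of the 37 members, 7 rose (18.9%) and 6 fell (16.2%) in WT IRI against WT normal, while 21.2% of all genes rose and 24.4% fell (45.7% in either direction). At an unadjusted p under 0.05, 13 members passed, against 53.7% of all genes. Both shares of members lay below those of all genes, and the median difference was -0.0017, against -0.065 over all genes. Of the 7 small members, 5 passed upward. Hspb1 reached 4.26 and 4.47 in WT IRI, from 0.73 on both WT normal arrays, a rise of 3.64 ± 0.26 or 12.4-fold (adjusted p = 0.000156). It was the largest rise among the members. Hspb8 reached -0.25 and 0.03, up by 1.86 ± 0.16 (adjusted p = 0.000281).

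Cryab stood at 4.81 and 5.20 after injury in WT, a rise of 1.11 ± 0.24 (adjusted p = 0.0101). Its dimmer probe gave 0.35 and did not pass (adjusted p = 0.117), and the brighter one did not pass without WT normal replicate 1 (1.00, adjusted p = 0.0622) or without WT IRI replicate 2 (0.91, adjusted p = 0.0542). Hspb6 (0.71) and Hspb11 (0.24) also rose, Hspb7 did not pass (0.88, adjusted p = 0.111), and Hspb2 fell (-0.31). The calls of these small changes did not hold throughout: of 17 alternatives, Hspb6 passed in 13, Hspb2 in 8 and Hspb11 in 7. All 3 lost their call without either WT normal array, without WT IRI replicate 2 and under normexp background correction, with adjusted p of up to 0.368, 0.706 and 0.385. Neutrophil markers summed to 0.313 on both WT normal arrays and to 50.5 and 108 in WT IRI. Skeletal and cardiac muscle markers summed to 3.34 and 3.81, and 4 of the 5 detected ones rose. Proximal tubule markers summed to 606 and 592 in WT normal and to 242 and 143 in WT IRI, and inner medulla markers to 70.1 and 76.8. The part of these in the results was not tested.

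Outside the small proteins, Hspa4l stood at 0.94 and 1.22 in WT IRI and rose by 0.90 ± 0.13 (adjusted p = 0.00152). Hsp90aa1 rose by 0.47, and Hsp90ab1 at 5.79 and 5.70 did not pass (0.23, adjusted p = 0.201). The inducible HSP70 genes did not pass on day 1. Hspa1a read 2.65 and 3.01 and Hspa1b 0.73 and 1.15, which overlapped WT normal for both, with differences of 0.08 and 0.09. Hspa8 was at 5.78 and 6.05, below both WT normal arrays, and fell by 0.81 (adjusted p = 0.0171). Its second probe also passed, at -0.97. For Hspa9 the dimmer probe passed (-0.24, adjusted p = 0.0434) and the brightest did not (-0.068). Hsph1, at 4.01 and 3.61, did not pass (-0.50, adjusted p = 0.181). Chordc1, at 0.92 and 0.66, and Hsf1, at 1.38 and 1.17, overlapped their WT normal arrays.

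The members that fell in WT were otherwise mostly DNAJ proteins. Dnaja4 stood at -0.57 and -0.55, down from 0.35 and 0.32, and fell by 0.89 (adjusted p = 0.00148). Its dimmer probe gave -0.57 and did not pass (adjusted p = 0.163). Dnajb12, an endoplasmic reticulum co-chaperone, fell by 0.58 and Dnaja3, the mitochondrial one, by 0.57. Dnajb6 fell by 0.50 on its brightest probe and by 0.38 on another, whereas another read 0.038 (adjusted p = 0.808). Dnaja1, at 3.36 and 3.30, did not pass on its brightest probe (-0.75, adjusted p = 0.104), but its 2 dimmer probes passed at -1.34 and -1.35. Without WT normal replicate 1 the median difference of the members in WT was -0.017, against -0.042 over all genes. Under normexp background correction 4 members were higher and 7 lower in WT. The calls over all genes fell as well, to 2304 higher and 2899 lower from 4373 and 5023.

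After injury in KD kidneys more members fell than rose, and the share that rose lay below that of all genes. Of the 37, 12 fell (32.4%) and 5 rose (13.5%) in KD IRI against KD normal, against 30.9% and 28.3% of all genes (59.1% in either direction). At an unadjusted p under 0.05, 18 members passed, against 64.1% of all genes. The share that fell was near that of all genes, and the median of the members was -0.30, against -0.061. The rises were in 4 small members and the HSP70 relative Hspa14. Hspb1 reached 4.53 and 4.84, up by 1.76 ± 0.26 (adjusted p = 0.0012), and Hspb8 reached 0.21 and 0.59, up by 1.10 ± 0.16 (adjusted p = 0.00113). Hspb6 (0.63) and Hspb11 (0.26) rose as well, although Hspb6 turned to -0.39 (adjusted p = 0.654) under normexp background correction. Cryab, at 4.69 and 5.26, overlapped its KD normal arrays (-0.11, adjusted p = 0.706). Hspa14, a partner of DNAJC2 at the ribosome, rose by 0.75 (adjusted p = 0.000404).

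Dnaja4 showed the largest fall, to -0.67 and -0.69, or -2.06 ± 0.12 (adjusted p = 3.31e-05), and its dimmer probe gave -2.23. Hsph1, at 4.42 and 4.66, fell by 1.37 ± 0.28 (adjusted p = 0.00457), and by 0.93 without KD normal replicate 1. Dnaja1, at 4.13 and 4.03, fell by 1.26 ± 0.33 (adjusted p = 0.014), and by 0.67 without that array. Dnajb12 (-0.99), Dnajb6 (-0.96), Dnaja3 (-0.86), Dnajb4 (-0.64) and Dnajb2 (-0.56) fell too. So did both tested genes of the mitochondrial chaperonin, Hspd1 (-0.66) and Hspe1 (-0.65). Hspa4l, at 1.07 and 1.33, fell by 0.39 (adjusted p = 0.0338), and Hsp90aa1 by 0.27, which turned to 0.18 (adjusted p = 0.0987) under quantile normalization. Without KD normal replicate 1, Hsp90aa1 (-0.18, adjusted p = 0.206) and Hspb6 (0.61, adjusted p = 0.0522) did not pass.

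Hspa1a was at 2.74 and 3.18 and Hspa1b at 0.92 and 1.25 after injury in KD. For both genes KD IRI replicate 1 lay within the WT normal pair, while KD normal replicate 2 read 3.14 and 1.47. Their differences of -1.98 ± 0.98 (adjusted p = 0.122) and -2.14 ± 0.96 (adjusted p = 0.0925) did not pass and again rested on KD normal replicate 1. Hspa8, at 6.55 and 6.27, did not pass (-0.46, adjusted p = 0.0883), while its second probe did (-0.79, adjusted p = 0.0482). Chordc1, at 1.56 and 1.66, Hsp90ab1, at 5.91 and 6.09, and Hsf1, at 1.32 and 1.38, did not pass. The dimmer probe of Hsp90ab1 passed (-0.56, adjusted p = 0.0146), whereas those of Chordc1 and Hsf1 did not. For Hspa9 the dimmer probe passed (-0.58, adjusted p = 0.000794) and the brightest did not (-0.023). Without KD normal replicate 1, 10 members fell, and without replicate 2, 19 did, against 26.3% and 27.7% of all genes. The median within slides was -0.53 on slide 1 and -0.14 on slide 2. Proximal tubule markers summed to 674 and 635 in KD normal and to 168 and 131 in KD IRI, with 8 of 8 lower, and all 6 markers of the loop and distal tubule were lower. Neutrophil markers summed to 0.779 and 6.31, then 54.4 and 60.7, with 5 of 6 higher, and inner medulla markers to 116 and 135, then 79.2 and 70.2. The part of these in the KD response was not tested.

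After injury no difference between the genotypes passed in any member with all arrays used. None of the 37 passed limma's test in KD IRI against WT IRI, while 3.75% of all genes were higher and 3.45% lower (7.2% in either direction). At an unadjusted p under 0.05, 11 members passed, against 27% of all genes. The median difference was 0.14, against -0.041 over all genes. Both KD IRI arrays lay above both WT IRI arrays in 18 of 37 members, against 25.7% of all genes. They lay below in 6 members, against 31.3% of all genes. The SE pools the spread of all 4 groups, so the gap between the KD normal arrays enters it. Chordc1 was nearest to the threshold (0.82 ± 0.20, adjusted p = 0.0559), with 0.92 and 0.66 in WT IRI below 1.56 and 1.66 in KD IRI. Dnaja1 (0.75, adjusted p = 0.202) and Hsph1 (0.72, adjusted p = 0.151) were also higher on both KD arrays. Hspb1, which reached 4.26 to 4.47 in WT and 4.53 to 4.84 in KD, differed by 0.32 ± 0.26 (adjusted p = 0.482). The lowest was Hspb7 (-1.09, adjusted p = 0.136), a dim probe that read -1.83 on WT IRI replicate 2 and -2.96 on replicate 1. Chordc1 passed under quantile normalization, and Chordc1, Bag3, Dnaja1 and Hsph1 under normexp background correction. Chordc1, Dnaja1, Dnajb1 and Hsph1 passed when either KD normal array was left out. Without WT IRI replicate 1, Hspa14 passed upward (0.42) and Hspb7 downward (-1.65). A dimmer probe of Hspa4 passed at 0.47 (adjusted p = 0.034).

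The interaction, that is the response to injury in KD less the one in WT, tests whether injury changed a member differently in the 2 genotypes. It passed in 6 of 37 members, 5 negative (13.5%) and 1 positive (2.7%), against 2.73% and 3.79% of all genes (6.52% in either direction), with a median of -0.40 against 0.0031. At an unadjusted p under 0.05, 15 members passed, against 26.1% of all genes. A negative value here means a smaller rise in KD, a larger fall in KD, or a fall in KD against a rise in WT. Hspb1 (-1.88) rose in both genotypes, less in KD, and Hspa4l (-1.29) rose in WT and fell in KD. Both genes started from lower levels in WT, and the KD and WT arrays ended close together. For Dnaja4 (-1.17) and Dnajb6 (-0.46) both genotypes fell, KD by more, and for Hsp90aa1 (-0.74) WT rose and KD fell. Hspa14 (0.56) was the positive member. With the slide as a block, Hspa14 (adjusted p = 0.0544) and Dnajb6 (adjusted p = 0.054) did not pass and Cryab did (-1.22, adjusted p = 0.0248). None of the 6 passed when any of the WT normal or KD IRI arrays was left out. Of all genes, those fits called from 5 without WT normal replicate 1 to 217 without KD IRI replicate 1. Without KD normal replicate 1, 3 members were negative (Dnaja4, Hspa4l and Hspb1), against 2.59% of all genes, and without replicate 2, 8, against 1.03%. Without WT IRI replicate 2, Hspb1, Dnajb6 and Hspa14 did not pass and Hspa4 and Hspe1 did. The KD normal arrays enter this contrast and the comparison of normal kidneys, so the 2 are not independent.

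**Figure D4:**
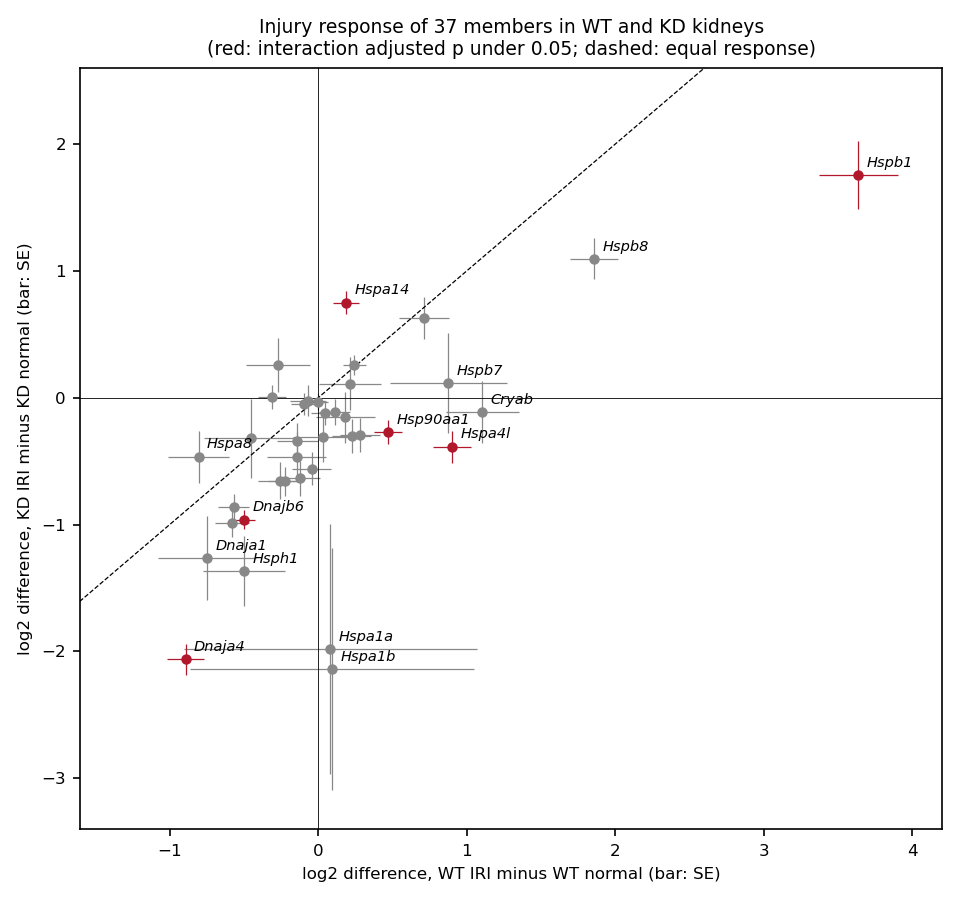
Each point is a tested member, placed by its log2 injury response in WT (horizontal) and in KD (vertical), with SE bars. The dashed line marks equal responses and red an interaction with an adjusted p under 0.05. Hspb1 lies farthest right at 3.64 and 1.76, Dnaja4 sits at -0.89 and -2.06, and most points lie below the line.

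Genes that work with the members were counted in listed pathways, beside the 6.34% of all genes higher and 8.97% lower in KD normal. Of 16 HSP90 co-chaperones, counted with the ubiquitin ligase Stub1, 5 rose and 1 fell in KD normal. They were led by the immunophilin Fkbp5 (2.38 ± 0.54, adjusted p = 0.0319) and Cdc37l1 (1.29), and Stub1 fell (-0.30). Of 12 endoplasmic reticulum chaperones tested, 4 rose and none fell, among them Sdf2l1 (1.28) and Hspa5 (BiP, 0.90, adjusted p = 0.0199). In the cytosolic chaperonin TRiC 3 of 8 subunits rose, with Cct6a at 0.56 and Cct3 at 0.53. Of 24 DNAJC proteins only Dnajc27 changed (-0.75). None of 8 BAG and nucleotide exchange proteins and none of 6 mitochondrial chaperones and proteases changed. Both tested genes of the other heat-shock factors and their binding protein did not pass in that comparison, and Hsf4 was not well above background.

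After injury in WT the same lists are given beside the 21.2% of all genes that rose and the 24.4% that fell, and nothing particular to a list is read from its count. TRiC rose in 5 of 8 subunits (Cct3 0.68, Cct5 0.56), and HSP90 co-chaperones in 5 of 16 with 1 lower (Ppid 0.66, Unc45a 0.57, Ppp5c -0.27). Of the BAG and exchange proteins 2 rose and 1 fell, Bag2 (1.55) and Hspbp1 (0.65) against Bag1 (-0.39). Among DNAJC proteins 2 rose and 9 fell, with Dnajc8 at 0.71, Dnajc5 at 0.28, Dnajc12 at -2.29 and Dnajc6 at -1.21. Mitochondrial chaperones and proteases fell in 4 of 6 with 1 higher, including Trap1 (-0.84), the mitochondrial HSP90, and Clpx (-0.76), with Htra2 at 0.50. Endoplasmic reticulum chaperones gave 1 rise and 1 fall, Dnajc10 (0.28) and Sil1 (-0.87).

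In KD kidneys after injury, where 28.3% of all genes rose and 30.9% fell, 7 of 12 endoplasmic reticulum chaperones fell and 1 rose, 5 of 6 mitochondrial ones fell and 1 rose, and 5 of 8 TRiC subunits rose. HSP90 co-chaperones gave 8 higher and 4 lower, DNAJC proteins 6 and 11, and BAG and exchange proteins 2 and 4. In KD IRI against WT IRI, where 3.75% of all genes were higher and 3.45% lower, 2 co-chaperones and 1 TRiC subunit were higher. There 1 DNAJC protein was lower, and no other gene of these lists passed.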

How the data were processed

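Total RNA (300 ng) from each kidney sample was labelled with Cy3, per the labels. Per the file headers, the authors' spot values are linear intensity from Feature Extraction 10.7.3.1 (protocol GE1_107_Sep09), taken as the processed signal. A deposited log2 matrix, with column medians from -0.136 to 0.16, tracked the scanner values after scaling and centring on each probe's median (r of at least 0.9999997). Its scale, centring and direction were inferred, not stated. The 8 arrays (2 in each of 4 groups) limit the precision.

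Here log2 intensity minus the array's 75th percentile was used. Spots that were controls or flagged as outliers were dropped, and spots of the same probe were averaged. A probe was kept if both arrays of any group had it well above background and all arrays measured it (27408 of 41174). Names came from RefSeq (GRCm38.p6) by accession (26690 probes). The brightest probe per name gave 20580 genes. A model of the 4 groups over all 8 arrays was fitted in limma 3.58.1 (R 4.3.3) with empirical Bayes and an intensity trend, leaving 4 residual degrees of freedom, and tested two-sided in 5 contrasts with Benjamini-Hochberg adjustment over all genes at 0.05. The script was tested on simulated data.

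The members and lists were chosen with earlier results of these data known. Levels on every array are given for members that passed with an absolute difference of at least 1 and for Hsf1, Hsf2, Hspa8, Hspa1a, Hspa1b and Hsp90ab1. From each pathway list up to 2 genes with the largest rise and 2 with the largest fall are named. Other members, dimmer probes and genes in single settings were named after their values were seen. Alternatives were quantile normalization, normexp (offset 50, on median signals), the deposited table, 2 other filters, no trend, only the arrays compared, a replicate block, the mean of probes, other probes, and leaving out each array.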

Additional observations from a re-analysis of the deposited data

Results flagged for a closer look

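In 6 of 37 members the injury response differed between KD and WT by the interaction term of the limma fit. The share over all genes was 6.52%, and 0 of the 6 calls held under every alternative setting. Each member is given with its levels as WT normal, KD normal, WT IRI and KD IRI pairs.

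Hspb1 differed by -1.88 ± 0.37 (SE, adjusted p = 0.0374), with levels of 0.73 and 0.73, 3.37 and 2.49, 4.26 and 4.47, and 4.53 and 4.84. Only the WT normal pair was low. Hspa4l differed by -1.29 ± 0.18 (adjusted p = 0.0197), with levels of 0.20 and 0.15, 1.62 and 1.55, 0.94 and 1.22, and 1.07 and 1.33. Its KD normal pair was the highest, and both of its dimmer probes passed at -1.35.

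Dnaja4 differed by -1.17 ± 0.18 (adjusted p = 0.0222), with levels of 0.35 and 0.32, 1.57 and 1.2, -0.57 and -0.55, and -0.67 and -0.69. Both IRI pairs were low, and the dimmer probe of Dnaja4 gave -1.66 and did not pass (adjusted p = 0.0647). Dnajb6 differed by -0.46 ± 0.10 (adjusted p = 0.0497), with levels of 2.05 and 1.97, 2.43 and 2.35, 1.48 and 1.54, and 1.42 and 1.45. The order of its pairs was that of Dnaja4. A dimmer probe of Dnajb6 gave -0.41 and did not pass (adjusted p = 0.167), and another passed at -0.62 (adjusted p = 0.0308).

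Hsp90aa1 differed by -0.74 ± 0.13 (adjusted p = 0.032), with levels of 6.16 and 6.25, 7.07 and 6.88, 6.77 and 6.59, and 6.67 and 6.74. Hspa14 differed by 0.56 ± 0.13 (adjusted p = 0.048), with levels of 3.23 and 3.27, 2.95 and 3.06, 3.55 and 3.34, and 3.77 and 3.74. Its KD normal pair was the lowest and its KD IRI pair the highest.

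No group had 4 or more samples, so no array was tested as an outlier within its group.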

How the results depend on the processing

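With all arrays, 17 members were higher in KD normal. In WT IRI 7 were higher and 6 lower, against 5 and 12 in KD IRI against KD normal, 0 and 0 in KD IRI against WT IRI, and 1 and 5 in the interaction. Over all genes these comparisons called 3149, 9396, 12169, 1481 and 1342. Normexp background correction called 1328 genes in KD normal. It called 5203 in WT IRI with 4 members higher, 6941 in KD IRI against KD normal with 3 higher, and 4 members higher in KD IRI against WT IRI. It also moved the median of all genes to 0.14, 0.22, -0.31 and -0.21 in the 4 pairwise comparisons, so its differences are relative to those. With no filter on dim probes, 15088 genes passed in WT IRI, 1984 in KD normal (with 10 members) and 572 in the interaction. Without the intensity trend 958 genes passed in KD IRI against WT IRI and 758 in the interaction, and with only the arrays compared 67 passed in the former. The deposited table called 636 genes in the interaction. In the interaction, the deposited table, no filter and no trend each left 2 members lower and 0 higher. Quantile normalization called 1 member higher in KD IRI against WT IRI.

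The differences between replicates of 2 groups correlated from 0.0216 to 0.262. These values cannot decide whether the replicate numbers pair the samples, because the replicate number is also the slide. The main fit had no term for the slide. With the replicate block, which is also the slide, 18 members were higher in KD normal, 1 in KD IRI against WT IRI, and 0 were higher and 5 lower in the interaction.

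Leaving out each array in turn gave ranges. In KD normal, 122 to 3863 genes, 1 to 18 members higher and 0 to 2 lower passed. WT IRI gave 5890 to 9653 genes, with 4 to 7 members higher and 3 to 8 lower. For KD IRI against KD normal the ranges were 9243 to 12525 genes, 3 to 5 members higher and 8 to 19 lower. KD IRI against WT IRI gave 24 to 1580 genes, 0 to 4 members higher and 0 to 1 lower, and the interaction 5 to 1687 genes, 0 to 1 member higher and 0 to 8 lower. Leaving other probes aside, calls held under every setting for 1 of 17 members in KD normal and 6 of 13 in WT IRI. The counts were 9 of 17 in KD IRI against KD normal and 0 of 6 in the interaction. Among the 6 in WT IRI, Dnaja4 (-0.57, adjusted p = 0.163) and Dnajb6 (0.038, adjusted p = 0.808) did not pass on another probe.

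Directions turned in 6 cases. Another probe gave 0.038 for Dnajb6 and 0.29 for Hspa4 in WT IRI, and 0.41 for Hspa4 in KD IRI against KD normal. In the latter comparison quantile normalization gave 0.18 for Hsp90aa1 and 0.39 for Hspa9, and normexp -0.39 for Hspb6. Sign changes among values that passed under neither setting are not counted. The causes were not tested.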
